A study of Homo sapiens with 6 samples.

Results

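LRP1 and FURIN, a receptor and a protease that acts on its precursor, were followed in ARPE-19, a line of human cells from the retinal pigment epithelium (RPE). They are 2 of the 7758 genes in the deposited table and were found by their gene symbols. The cells carried either a control hairpin (sh-Control, genotype Scramble) or a hairpin that silences METTL3 (sh-METTL3), the enzyme that adds N6-methyladenosine (m6A) to mRNA. Hairpins were delivered by lentivirus, and stably transformed cells were selected. Both groups received lipopolysaccharide (LPS) at 1 μg/ml for 24 h, so every difference below is one between LPS-treated cells, and no cells without LPS were compared. Each group had 3 libraries. The labels do not say whether the libraries of a group share an infection, so the p-values measure only the spread between these libraries, which may be technical.

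LRP1 is a very large endocytic receptor of the lipoprotein receptor family. It binds protease-inhibitor complexes, apolipoprotein E, matrix proteins and growth factors at the cell surface, and carries them to lysosomes. Metalloproteases can shed its outer part from the cell. Its precursor is cut in the trans-Golgi network into an extracellular and a membrane-bound chain that stay together. FURIN is the proprotein convertase known for that cut, and it also activates growth factors, integrin chains, metalloproteases and its own precursor.

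The study also measured both mRNAs by qPCR, and its primer pairs show the parts of each mRNA that were read apart from the sequencing. Both pairs were located in the GENCODE release 29 transcripts on GRCh38 and lie in coding exons. Both genes are on the plus strand, to which the forward primers read the same, while the reverse primers read as the minus strand. The sequences are given 5′ to 3′ in lower case, without a part marked in capitals, since the whole oligo is the item.
LRP1 forward: ctgactggcgaacaaacaca
LRP1 reverse: acggtccggttgtagttgat
FURIN forward: gcaaagcgacggactaaacg
FURIN reverse: tgccatcgtccagaatggaga
The LRP1 forward primer lies at chr12:57178478-57178497, in exon 27 of the 89 exons of LRP1-201. Its partner lies at chr12:57178946-57178965 in exon 28, which gives a product of 202 bases from the spliced transcript. Among 12 annotated LRP1 transcripts, the pair matched 1, the full-length one. The FURIN pair lies at chr15:90876486-90876505 in exon 4 and at chr15:90876969-90876989 in exon 5 of the 16 exons of FURIN-207, with a product of 166 bases. It matched 4 of 8 annotated FURIN transcripts. The sequencing values below are totals per gene and do not separate transcripts.

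The values in the table are scaled counts, that is, reads per gene divided by 1 size factor per library. Where a value is given for each library of a group, replicates 1, 2 and 3 follow in that order. Only genes with an adjusted p under the authors' own limit are in the table. A member could not have been listed without a difference, so the tests below were run on libraries that had already selected the genes. The listed genes held between 10898434 and 17750052 reads in a library, and total depth is unknown. METTL3 had scaled counts of 1154, 1108 and 1091 in the control libraries, against 966, 1001 and 765 in the sh-METTL3 libraries, 18.5% lower in the mean (log2 fold change -0.30, SE 0.097, adjusted p 0.032 by limma). Replicate 3 lay lowest, and without it the log2 fold change was -0.18. The METTL3 call was lost in 6 of 18 alternative fits, namely with RLE factors (adjusted p 0.261 by edgeR), with TMM factors (0.0573 by edgeR), without the intensity trend (0.120 by limma) and without any 1 of the control libraries (from 0.0684 to 0.124 by limma). Of 16 RPE markers, 7 were listed, of which 4 rose and 3 fell, with summed scaled counts from 18864 to 20134 in the control libraries and from 30158 to 33478 in the sh-METTL3 libraries. Most of that sum was KRT8 (mean 10761 against 22324) and KRT18 (5980 against 7969), keratins found in many epithelia, and MITF and LRAT rose as well (log2 fold change 0.85 and 0.99), while BEST1, PMEL and SERPINF1 fell (-1.73, -1.80 and -3.04). The defining markers RPE65, RLBP1 and TYR were not among the listed genes and were not analysed here. Of 10 mesenchymal markers 6 were listed, 2 higher and 4 lower, and their sum ranged from 57814 to 61399 in the controls and from 92546 to 105623 in sh-METTL3. VIM made up most of it (mean 45935 against 89437), whereas COL1A1, COL1A2, THY1 and PDGFRB fell, and the median log2 fold change of the 6 was -1.32. Only 1 of the 6 was called higher without the intensity trend, and likewise without sh-Control replicate 1 or 3 or sh-METTL3 replicate 1 or 2. Of 7 leukocyte markers 3 were listed, 1 higher and 2 lower, with sums from 170 to 211 and from 157 to 187. The part of these marker changes in the results for LRP1 and FURIN was not tested, and a change in RNA per cell cannot be told apart from a change in the cells present.

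LRP1 mRNA was abundant in all libraries and lay higher in each METTL3-silenced library than in any control. LRP1 (ENSG00000123384) lies on chromosome 12 of GRCh38, from 57128493 to 57213351 on the plus strand, with an exonic length of 20839 bases. Its scaled count was 82477, 88273 and 81200 in the control libraries. After METTL3 silencing it was 93433, 93660 and 93258. The groups did not overlap, and sh-Control replicate 2 came closest to the sh-METTL3 libraries, which lay at least 5.65% above it. Non-overlap held for 98.5% of listed genes. The control mean was 83984 ± 3770 (SD, n = 3), and after METTL3 silencing it was 93450 ± 201 (SD, n = 3), 11.3% above the control mean.

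By limma, the log2 fold change of LRP1 on the log2(scaled count + 1) scale was 0.16 (SE 0.082, 95% confidence interval -0.03 to 0.34), with an adjusted p of 0.263, and it did not pass the threshold of 0.05. By the same test 97.9% of listed genes passed. The difference passed in 4 of 18 alternative fits, among them DESeq2 (adjusted p 0.0235), and over all of them this p lay between 0.00426 and 0.649. The other passes were edgeR fits with RLE factors, TMM factors or totals, each computed from the listed genes only. limma draws the spread of each gene toward the spread expected at its level. For LRP1 its own residual SD was 0.045 on the log2 scale and the expected SD 0.125.

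LRP1 values lay closer together in the METTL3-silenced cells than in the controls. The reads behind the values numbered from 72679 to 103392 per library, so counting error alone was from 0.311% to 0.371% of each value. In the control cells the SD was 13.7 times the counting error, a ratio below which lay 99.3% of 6035 listed genes with a mean of at least 100. In the METTL3-silenced cells it was 0.625 times the counting error, and 9.3% of the same genes lay below that ratio. The corresponding median over these genes was 1.68 in the controls and 1.81 in the METTL3-silenced cells. At a given relative spread this ratio grows with the number of reads, so these shares also depend on the high level of LRP1. As a share of the mean, the SD of LRP1 was 4.49% in the controls and 0.216% in the METTL3-silenced cells. For FURIN it was 6.69% and 2.61%. The difference in spread between the groups was not tested.

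FURIN mRNA was lower in each METTL3-silenced library than in any control. FURIN (ENSG00000140564) lies on chromosome 15 of GRCh38, from 90868592 to 90883458 on the plus strand, with an exonic length of 4728 bases. Its scaled count was 5171, 5529 and 4836 in the control libraries, against 4586, 4391 and 4603 in the sh-METTL3 libraries. The groups did not overlap, but the gap was small, as the highest sh-METTL3 library lay 4.82% under sh-Control replicate 3. The control mean was 5179 ± 346 (SD, n = 3), and after METTL3 silencing it was 4527 ± 118 (SD, n = 3), 12.6% lower.

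The log2 fold change of FURIN was -0.19 (SE 0.059, 95% confidence interval -0.32 to -0.06), with an adjusted p of 0.0273 by limma. FURIN was therefore called lower, as were 51.3% of listed genes. The call was lost in 8 of 18 alternative fits, with an adjusted p from 0.00923 to 0.809, and 4 of the 6 fits that left out 1 library were among them. The residual SD of FURIN was 0.073, close to the expected SD of 0.071. The reads numbered from 3407 to 6482 per library, with a counting error from 1.24% to 1.71%.

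**Figure D1:**
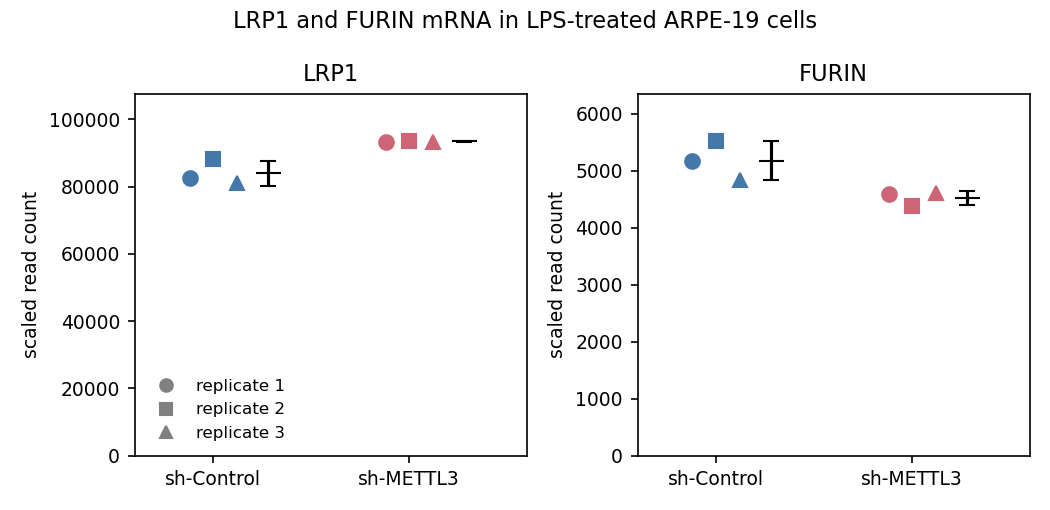
Scaled read count (vertical axis, from 0) of LRP1 and FURIN in each library, with blue marks for sh-Control, red marks for sh-METTL3, a marker shape per replicate, and a bar for the mean and SD of 3 libraries. The sh-METTL3 libraries lie above the controls for LRP1 (93258 to 93660 against 81200 to 88273) and below them for FURIN (4391 to 4603 against 4836 to 5529).

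For both genes, sh-Control replicate 2 held the highest control value. Without it, the log2 fold change of LRP1 was 0.19 and that of FURIN was -0.14, with adjusted p of 0.179 and 0.125 by limma. Without sh-Control replicate 3, the lowest control for both genes, the values were 0.13 for LRP1 and -0.24 for FURIN, with adjusted p of 0.649 and 0.0153 by limma. The FURIN call was also lost without sh-Control replicate 1, sh-METTL3 replicate 1 or sh-METTL3 replicate 2, with adjusted p of 0.0784, 0.0643 and 0.115 by limma. The signs of both differences were thus kept, and the same control library moved both genes in the same direction.

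The scaling of the libraries moved the genes in opposite ways relative to the threshold. With RLE factors computed from the listed genes, the median log2 fold change of all listed genes shifted by 0.123. On the log2 scale LRP1 then differed by 0.28 (adjusted p 0.00426 by edgeR) and FURIN by -0.071 (adjusted p 0.809 by edgeR). With TMM factors LRP1 had 0.20 (adjusted p 0.0256) and FURIN -0.15 (adjusted p 0.0976), both by edgeR. With listed-gene totals in edgeR LRP1 had 0.20 (adjusted p 0.0139) and FURIN -0.15 (adjusted p 0.0995). All of these factors were computed only from genes listed for a difference, which limits what the fits with them show. Both genes passed together only in DESeq2 with the size factors of the table, where FURIN had an adjusted p of 0.0199. Relative to the median of all listed genes, which was -0.21 in limma, LRP1 lay higher by 0.37 on the log2 scale, and from 0.34 to 0.40 over the alternatives. FURIN lay 0.02 above that median. Over the alternatives FURIN lay from -0.03 (without sh-Control replicate 3) to 0.06 (without sh-Control replicate 2) from the median of the same fit. Without sh-METTL3 replicate 3 it lay at -0.01 from it.

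**Figure D2:**
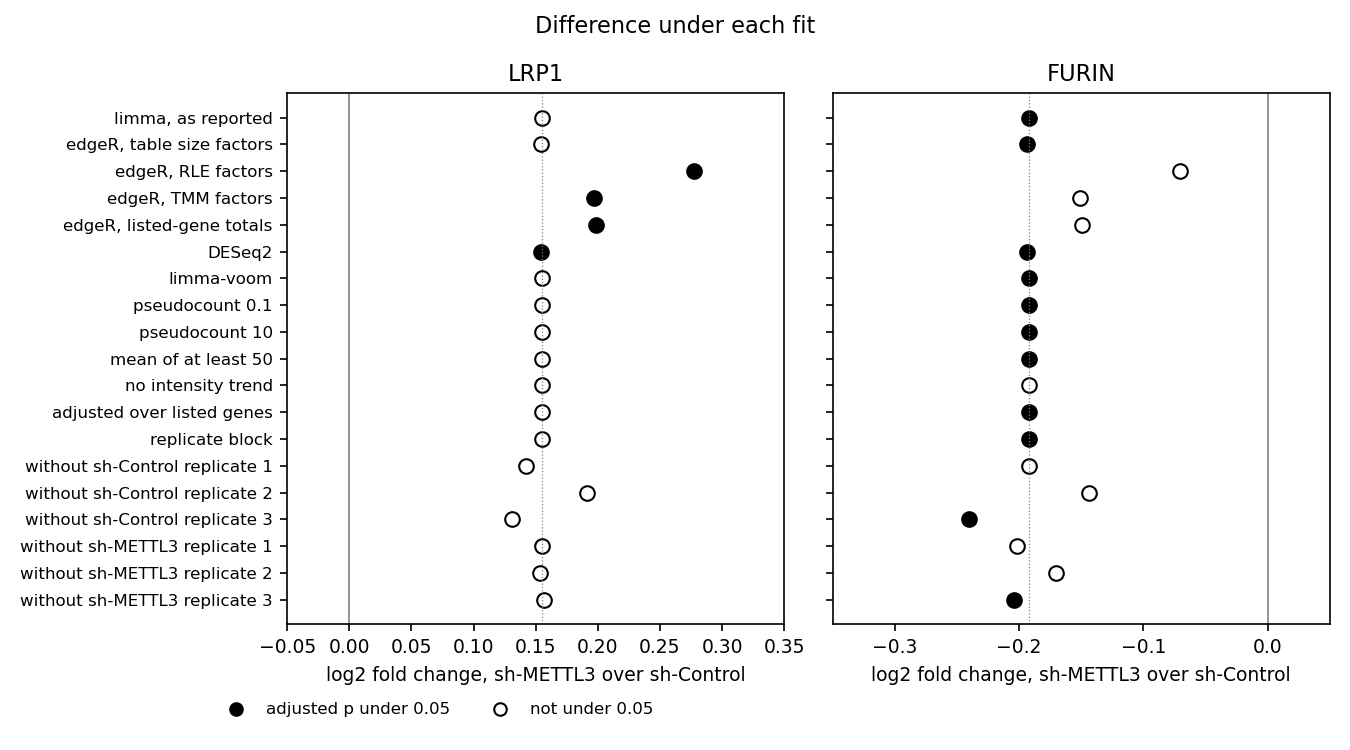
Log2 fold change of LRP1 and FURIN (horizontal axes, sh-METTL3 over sh-Control) under the reported limma fit and 18 alternatives, with filled points where the adjusted p was under 0.05. LRP1 stays above 0, from 0.13 to 0.28, with 4 filled alternatives, and FURIN stays below 0, from -0.24 to -0.071, with 10.

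The ratio of LRP1 to FURIN within a library does not depend on its size factor. Per kb of exon, LRP1 was 3.62, 3.62 and 3.81 times as abundant as FURIN in the control libraries. After METTL3 silencing it was 4.62, 4.84 and 4.60 times as abundant. All METTL3-silenced libraries lay above all controls, with a mean of 4.69 ± 0.13 against 3.68 ± 0.11 (SD, n = 3 each), 27.2% higher. On the log2 scale the difference in the ratio was 0.35, and it ran from 0.32 to 0.37 when each library was left out in turn. These values are a description without a test, because both genes had been listed for a difference. An exact permutation test of a single value with 3 libraries against 3 cannot go below 0.1, two-sided, and both LRP1 and FURIN gave that value. So does any gene whose groups do not overlap, as held for 98.5% of listed genes, so this test sets neither gene apart.

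**Figure D3:**
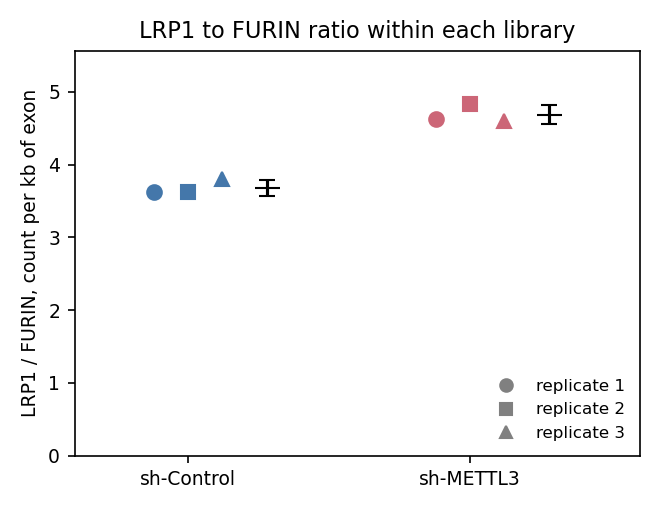
Ratio of LRP1 to FURIN in scaled count per kb of exon (vertical axis, from 0) in each library, with blue marks for sh-Control, red for sh-METTL3 and a bar for the mean and SD of 3 libraries. The ratio lies from 3.62 to 3.81 in the control libraries and from 4.60 to 4.84 in the sh-METTL3 libraries.

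In level per length, LRP1 stood near the top of the list and FURIN well up in it. LRP1 had 4030 ± 181 scaled counts per kb in the control cells and 4484 ± 9.67 after METTL3 silencing (SD, n = 3 each). Its rank per kb among the 7758 listed genes was from 118 to 126 in the control libraries and from 98 to 101 in the sh-METTL3 libraries. FURIN had 1095 ± 73.2 and 957 ± 25.01 scaled counts per kb (SD, n = 3 each), with ranks from 429 to 485 and from 499 to 538. LRP1 took from 0.566% to 0.608% of the reads on listed genes in the control libraries and from 0.667% to 0.681% in the sh-METTL3 libraries.

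Both genes belong to the 15 that the study chose for verification partly from these libraries. The paper took the 15 from genes whose m6A was lowered after METTL3 silencing in a separate sequencing of methylated RNA. It then measured their mRNA by qPCR, and neither measurement was used here. By size of the absolute log2 fold change with the size factors of the table, LRP1 ranked 1 and FURIN ranked 2 from the smallest of the 15. Over the whole list, 0.206% of genes had a smaller absolute log2 fold change than LRP1 and 1.84% a smaller one than FURIN. The order of LRP1 and FURIN turned with RLE factors, TMM factors and listed-gene totals and without sh-Control replicate 2. With RLE factors LRP1 ranked 3, and the shares were 17.7% for LRP1 and 1.11% for FURIN. With 1 library left out, the share lay from 0.142% to 2.26% for LRP1 and from 0.232% to 7.51% for FURIN.

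Other annotated genes overlap the span of LRP1. The start of LRP1 shares 3647 bases with STAT6, a signal transducer on the minus strand, and LRP1-AS, an antisense gene of 3000 bases, lies inside LRP1. These are spans of whole genes with introns, and shared exonic bases were not counted. Strandedness of the counting is not given in the sources used here, so reads there cannot be told apart if strand was not used. LRP1-AS and MIR1228, a miRNA gene inside LRP1, were not listed. STAT6 had scaled counts of 5924 ± 4.33 in control and 5406 ± 62.3 in METTL3-silenced cells (SD, n = 3 each). Its difference was opposite in sign to that of LRP1, at -0.13 on the log2 scale (adjusted p 0.0485 by limma). No annotated gene overlaps FURIN.

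The listed genes next to LRP1 and FURIN differed in both directions. Before LRP1 on chromosome 12, PRIM1, ZBTB39 and STAT6 were lower, with log2 fold changes of -0.80, -0.62 and -0.13. After it, NXPH4 and R3HDM2 were higher by 1.99 and 0.26, and SHMT2, the mitochondrial serine hydroxymethyltransferase, had -0.68. Before FURIN on chromosome 15, SEMA4B and BLM were lower (-0.21 and -0.60) and ZNF774 was higher (0.62). After it, MAN2A2, HDDC3 and RCCD1 were higher by 0.30, 0.45 and 0.22. All of these passed by limma, as 97.9% of listed genes did.

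The motif GGACT, a common form of the m6A consensus, was counted on the sense strand of the longest coding transcript of each gene. It occurred 32 times in the 14897 bases of LRP1-201, a density of 2.15 per kb, above that of 92.6% of 19669 coding genes. In the 4345 bases of FURIN-207 it occurred 6 times, 1.38 per kb, above that of 73.8%. The median density was 0.927 per kb, and 88.8% of these transcripts held the motif at least 1 time. A match is a run of letters and not a methylated site, and m6A was not measured in these libraries.

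Across the 6 libraries, the genes with the pattern most like that of LRP1 were TMEM8A, DPP7, TMEM178A, ANKRD54 and PTPN6, out of 5724 coding genes with a mean of at least 100. Pearson correlations of the log2 values ran from 0.989 to 0.996. They follow the difference between the groups and the high sh-Control replicate 2 together, and are given as a description. TMEM8A had 2344 ± 229 scaled counts in the controls and 3127 ± 20.9 in sh-METTL3 (SD, n = 3 each), again with the larger spread in the controls. DPP7, a lysosomal dipeptidase, had 3651 ± 241 and 4440 ± 76.1 (SD, n = 3 each). The genes most like FURIN were RPL28, ZNF319, SREBF2, PTPRF and CSNK1A1, with correlations from 0.985 to 0.992. SREBF2, a transcription factor of cholesterol genes, had 6674 ± 471 and 5552 ± 253 (SD, n = 3 each).

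The other genes of the LRP1 pathway were then read from lists of ligands, partners, shedding proteases and relatives, as far as their genes were listed. Over all listed genes 46.6% were called higher and 51.3% lower, and the median log2 fold change was -0.21. All lists are set beside these limma values. With RLE factors, TMM factors and listed-gene totals the majority turned, as higher calls were 56.3%, 50.3% and 50.5% of the called genes. Some genes, such as TGFB1 and MMP14, stand in more than 1 list. No test of a list was made.

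Most listed LRP1 ligands were lower in the METTL3-silenced cells, while LRP1 itself was not called. Of 38 ligands 20 were listed, of which 15 fell and 5 rose, and their median log2 fold change was -0.83. PDGFB, a growth factor chain, went from 836 ± 54.4 to 179 ± 46.2, and APOE, the apolipoprotein that LRP1 clears, from 264 ± 27.8 to 60.3 ± 14.6 (SD, n = 3 each). Their log2 fold changes were -2.25 and -2.14. SERPINE2 and SERPINA1, serine protease inhibitors that LRP1 takes up in complex with their targets, had -1.66 and -1.63.

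The plasminogen activators, whose inhibitor complexes LRP1 clears, were also lower. PLAT, which encodes tissue plasminogen activator, held 954, 938 and 736 in the control libraries, against 341, 320 and 236 in the sh-METTL3 libraries. The groups were far apart, by -1.55 on the log2 scale (adjusted p 2.25e-05 by limma). PLAU, which encodes urokinase, had a log2 fold change of -0.95, and the urokinase receptor PLAUR had -0.82. Among abundant matrix ligands, FN1 and THBS1 had log2 fold changes of -0.75 and -0.88. The 5 ligands called higher were IGFBP3 (1.47), SERPING1 (1.30), TIMP3 (0.64), MDK (0.62) and TIMP2 (0.38), by log2 fold change.

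Among partners of LRP1 inside the cell, the chaperone moved in the direction of the LRP1 values. LRPAP1, which holds LRP1 free of ligand in the endoplasmic reticulum, had scaled counts of 2970, 3281 and 3044 in the control libraries. In the METTL3-silenced cells it had 4548, 4238 and 4425. The groups did not overlap, and the log2 fold change was 0.51 (SE 0.056, adjusted p 6.41e-05 by limma). Of 17 chaperone, adaptor and co-receptor genes 11 were listed, 3 higher and 8 lower, with a median of -0.57. The largest changes were those of DAB1 (2.50), an adaptor that was weakly expressed in the controls at 33.1 ± 10.5 (SD, n = 3), MAPK8IP2 (-1.33), PID1 (-0.94) and PLAUR.

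The proteases that shed or cut LRP1 were read where listed. Of 11 such genes 5 were listed, 4 lower and 1 higher, and the median log2 fold change was -0.33. MMP14, a membrane metalloprotease, went from 40612 ± 1749 to 26666 ± 3689 (SD, n = 3 each). Both MMP14 and ADAM12 had a log2 fold change of -0.62. ADAM10 had -0.16. NCSTN, a γ-secretase subunit, was higher (0.34). ADAM17 was not listed.

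LRP1 was by far the most abundant listed member of its receptor family. Of 14 relatives 8 were listed, and in the control cells their levels ran from 8.22 to 308 scaled counts per kb, against 4030 for LRP1. Of the 8, 2 rose and 6 fell, around a median of -0.36 on the log2 scale. LRP4 and SORL1 had log2 fold changes of -1.26 and -1.08, and LRP3 and LRP1B had 1.01 and 0.82.

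On the FURIN side, the other convertases that were listed went both ways. Of 8 other proprotein convertases 4 were listed, 3 higher and 1 lower. PCSK7, a convertase that is expressed in most tissues, had scaled counts of 1250, 1312 and 1181 in the control libraries, against 971, 976 and 906 in the sh-METTL3 libraries. These do not overlap, and its log2 fold change was -0.39 (adjusted p 0.000984 by limma), in the same direction as FURIN. PCSK4 and PCSK5 were higher (0.73 and 0.80), and PCSK6 was barely expressed, at 3.03 ± 3.06 and 13.9 ± 10.6 (SD, n = 3 each). In the control cells the listed relatives reached at most 62.0 scaled counts per kb, against 1095 for FURIN.

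Genes that restrain or route furin protein went both ways. Of 7 such genes 5 were listed, 2 higher and 3 lower, and the median log2 fold change was -0.79. Without sh-Control replicate 3, only 1 was called higher. GBP5, an interferon-induced protein that lowers furin activity, held 258, 290 and 316 in the control libraries, against 91.4, 67.0 and 73.9 in the sh-METTL3 libraries. The log2 fold change of GBP5 was -1.89, and that of GBP2, which acts in the same way, was -0.91. PACS1, which returns furin to the trans-Golgi network, had -0.79. FLNA, an actin cross-linker that tethers furin at the cell surface, was higher (0.64), as was PACS2 (0.20).

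Known furin substrates were lower more often than higher. Of 56 substrates other than LRP1 33 were listed, 21 lower, 11 higher and 1 not called, with a median log2 fold change of -0.43. The one not called was ITGAV, an integrin chain (log2 fold change 0.25, adjusted p 0.107 by limma). TGFB1 and TGFB2, transforming growth factors that furin activates, had log2 fold changes of -0.32 and -0.64. The members with the largest changes were COL5A1, NOTCH3, PDGFB and SEMA3A. COL5A1, a collagen chain, went from 1.64 ± 2.09 to 5393 ± 316 and NOTCH3, a receptor, from 11.0 ± 4.50 to 493 ± 10.2 (SD, n = 3 each). SEMA3A, an axon guidance ligand, went from 300.5 ± 8.67 to 79.4 ± 4.37 (SD, n = 3 each).

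**Figure D4:**
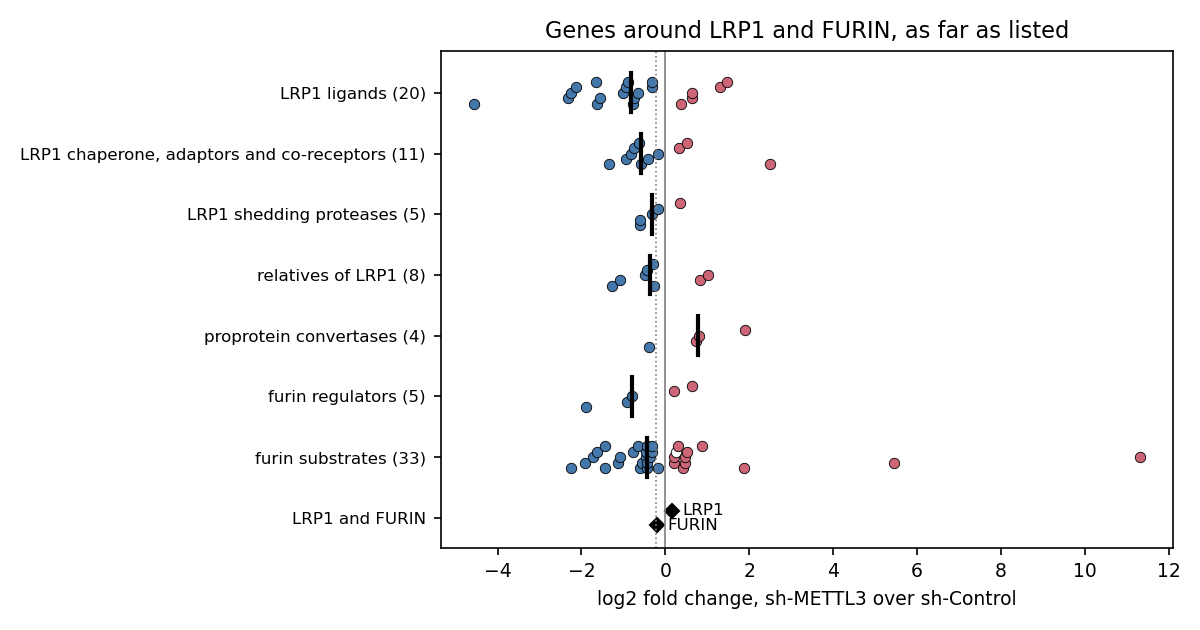
Log2 fold change (horizontal axis, sh-METTL3 over sh-Control) of each listed gene in 7 lists, with the number listed in brackets, red for called higher, blue for called lower and white for not called. Thick bars mark list medians, the dotted line the median of all listed genes (-0.21), and diamonds LRP1 (0.16) and FURIN (-0.19), which lie close to 0 beside most of their ligands, partners and substrates.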

How the data were processed

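RNA of 6 libraries was measured by RNA sequencing. Per the labels, libraries were made with a TruSeq kit; HISAT2 2.0.5 and hg38 are named in the submitters' processing notes. The study's methods name Cufflinks with RefSeq mRNAs, but the rows are Ensembl genes whose starts and ends equal those of GENCODE release 29 for 7758 of 7758 genes. The read counter and strandedness are not given in the sources used here. The deposited signal of a library is its read count over 1 size factor, and 100% of values gave whole reads within 0.01. Group means and, per gene, the log2 change and p-value of the authors' own comparison were deposited too. These were not used, except that the ratio of the deposited p-value columns gave the number of genes tested, 22977. In 13 rows a symbol had become a date and was restored from GENCODE.

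limma 3.58.1 (R 4.3.3) with an intensity trend was fitted to log2(scaled count + 1) over all 7758 genes, without covariates. p-values were adjusted by Benjamini-Hochberg over 22977 tests, with a threshold of 0.05. No filter was applied. Alternatives used edgeR 4.0.16 and DESeq2 1.42.0 on the recovered reads, limma-voom, pseudocounts of 0.1 and 10, genes with a mean of at least 50, no intensity trend, adjustment over the listed genes, a replicate block, and leaving out each library. Fits were tested on simulated data. Named genes were LRP1, FURIN, METTL3, in each list the 4 with the largest change at a mean of at least 100 and those with a set role, 5 genes of like pattern and 3 neighbours on each side; FN1, THBS1, ITGAV, PACS2, TGFB2, marker genes and the 5 higher ligands were named after their values were seen. Members, lists and tests were chosen with earlier results of these data known. Levels were compared between genes per kb of exonic length, except that marker sums and the shares of genes in them are in scaled counts not divided by length. Some genes that the rule would name are not reported here.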

Additional observations from a re-analysis of the deposited data

How the results depend on the processing

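The log2 fold changes of LRP1, FURIN and METTL3 kept their signs in 18 alternatives, and that of the LRP1 to FURIN ratio in the 8 run. LRP1 passed with RLE factors (0.28), TMM factors (0.20) and listed-gene totals (0.20) in edgeR and in DESeq2 (0.15), and with 1 library left out at a time its log2 fold change lay between 0.13 and 0.19, passing in 0 of 6. FURIN was lost with RLE factors (-0.071), TMM factors (-0.15) and listed-gene totals (-0.15) in edgeR and when the intensity trend was dropped (-0.19). With 1 library left out it lay from -0.24 to -0.14, passing in 2 of 6. METTL3 was lost with RLE factors (-0.17), TMM factors (-0.25) and no intensity trend (-0.30), and lay from -0.38 to -0.18 with 1 library left out, passing in 3 of 6 and failing without any 1 of the controls. RLE factors raised the share of higher calls from 47.6% to 56.3%, while the median log2 fold change of all listed genes shifted by 0.123. Why these factors differ from those of the table was not tested. The furin regulators called higher fell from 2 to 1 without the intensity trend, and numbered 1 to 2 with a library left out. Counts of the marker lists were rerun by a choice made after seeing the data: mesenchymal markers called higher fell from 2 to 1 without the intensity trend, and numbered 1 to 2 with a library left out (1 without sh-Control replicate 1 or 3 or sh-METTL3 replicate 1 or 2). With a mean of at least 50 required, 1 leukocyte marker was called and 0 were lower, since fewer genes were tested. All other counts of the pathway and marker lists, the 7597 called genes and the LRP1 to FURIN ratio stayed within 1.5 times or 1 SD.

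A replicate block gave 7481 called genes, 7406 of which the fit without it shared. LRP1 (0.16, adjusted p 0.417 by limma) and FURIN (-0.19, adjusted p 0.0438 by limma) kept their calls. Libraries with the same number deviated from their group means with correlations of 0.0036, 0.019 and -0.015, which does not pair them. Library depth is unknown, and genes outside the list have no value here.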
